A study of Mus musculus with 16 samples.

Results

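Binding near Klf4 and 7 related genes (Klf3, Klf6, Klf7, Klf9, Klf10, Klf12 and Klf13) was examined in 13 ChIP-seq libraries of reprogramming cells. The 8 genes were a given list, chosen with earlier results of these data known. Every peak summit inside a gene body or up to 50 kb to either side of it was taken (mm10, GENCODE M21). This gave 235 of the 227116 summits of the series, of which 6 lay in Klf4 exons and were kept apart because Klf4 was itself delivered to the cells. The other 229 summits formed 162 sites once summits within 100 bp of the next were merged.

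OG2 MEFs, embryonic fibroblasts of mice with a GFP reporter under the Oct4 promoter, were used. All of them received retroviruses (pMX vectors) for Sox2, Klf4 (together SK) and 1 POU factor, and were then kept in the chemically defined medium iCD1. Day 0 was the change to that medium. An Oct4 antibody was used on Oct4-SK cells at days 1, 5 and 7, on Oct4defSox2-SK cells at days 1 and 5, and on Oct4 S151M-SK cells at day 1. Oct4defSox2 is an Oct4 with a disrupted interface to Sox2, and S151M and M151S exchange a residue between Oct4 and Oct6, the product of Pou3f1. Sox2 was profiled at days 1 and 5 on cells with Oct4, with Oct6 or with Oct4defSox2 beside SK. The paper names 2 Sox2 antibodies and does not say which library had which. An Oct6 antibody was used on Oct6 M151S-SK cells, whose title gives day 1 and whose day label gives day 2. The paper states day 1. Each group was 1 library, so no difference below has a replicate check and no p-value was computed. Intervals are Wilson 95% intervals, which cover counting error among summits only.

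The lists were of very unequal length, from 1038 summits (Oct4defSox2, day 5) to 101170 (Oct4 S151M), and read depths were not used here. The summit score is the −log10 p-value of MACS2, which depends on depth, so scores are compared within a library only, by percentile (100 is the strongest summit). The lists began at scores of 4.00 to 4.12 in 12 libraries but at 2.3 for Oct6 M151S, and 8 of the 19 Oct6 M151S summits near the Klf genes scored under 4.

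Klf proteins are zinc finger transcription factors that bind GC-rich CACCC or GC boxes, and their relatives of the Sp family bind similar sequences. Klf4 is a reprogramming factor that also acts in epithelial cells, and several Klf proteins take part in keeping pluripotent cells undifferentiated. Oct4 and Sox2 can bind together to a composite element (SoxOct), in which a Sox half-site precedes an octamer, while POU factors also form homodimers on a palindromic element (MORE) or on the same element with an inserted base (MORE+1).

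The site near these genes that was found in the most libraries lay 18335 bp upstream of the Klf13 start, at chr7:63957175-63957325 (mm10, + strand, between genes). Klf13 is a repressor or activator depending on the promoter and is known from T cells. Its site had a SoxOct match with 1 mismatch at chr7:63957247-63957261 on the + strand, which contains the octamer ATGCAAAT without a mismatch at chr7:63957254-63957261, and a KLF string (GGGNGNGGC) on the − strand at chr7:63957276-63957284. The site is printed because it was found in 10 of 13 libraries, with both matches in capitals.
Klf13 site: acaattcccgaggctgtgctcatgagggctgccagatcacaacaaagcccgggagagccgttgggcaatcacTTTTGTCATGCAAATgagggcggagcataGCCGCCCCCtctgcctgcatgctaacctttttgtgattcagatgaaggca
The site of Klf12 that was found in the most libraries lay in an intron, at chr14:100117809-100117959 (mm10, + strand), 166795 bp into the gene and 31880 bp from the nearest start of a protein-coding transcript. It is printed because it carried the MORE element without a mismatch (chr14:100117903-100117914, capitals) under the strongest Oct4 S151M summit near the 8 genes.
Klf12 intron site: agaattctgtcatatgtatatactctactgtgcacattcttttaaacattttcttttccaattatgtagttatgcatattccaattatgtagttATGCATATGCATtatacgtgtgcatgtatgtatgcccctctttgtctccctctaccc
A site 9727 bp upstream of Klf7, at chr1:64131934-64132084 (mm10, + strand), is printed as a strong site whose printed stretch held none of the searched strings.
Klf7 upstream site: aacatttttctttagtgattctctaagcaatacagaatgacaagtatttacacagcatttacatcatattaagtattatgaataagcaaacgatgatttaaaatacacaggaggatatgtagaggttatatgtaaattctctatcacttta
The most shared site of Klf4 outside its exons lay 6259 bp from the start and past the end of the gene, at chr4:55526132-55526282 (mm10, + strand). This stretch too held none of the searched strings.
Klf4 downstream site: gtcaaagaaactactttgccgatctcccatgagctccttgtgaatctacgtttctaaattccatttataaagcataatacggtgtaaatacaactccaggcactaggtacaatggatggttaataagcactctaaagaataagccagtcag
Shorter stretches are printed for 4 further sites, chosen after their values had been seen, each with the match in capitals. A Klf9 upstream site at chr19:23136196-23136231 and a Klf9 intron site at chr19:23156414-23156449 both carried MORE with 1 mismatch.
Klf9 upstream site: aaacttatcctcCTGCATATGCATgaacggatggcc
Klf9 intron site: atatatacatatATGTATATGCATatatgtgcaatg
A second Klf12 intron site, at chr14:99944292-99944328 and within 1 kb of the start of a shorter, non-coding Klf12 transcript, carried MORE+1 without a mismatch, and a Klf6 intron site at chr13:5865660-5865698 carried SoxOct with 2 mismatches (both + strand).
Klf12 second intron site: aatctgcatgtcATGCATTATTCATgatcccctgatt
Klf6 intron site: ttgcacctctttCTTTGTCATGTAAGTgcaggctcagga

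Summits in Klf4 exons were found in 4 of 13 libraries, and in 2 with a score of at least 10 or with equal numbers of strongest summits. All 6 lay in the third exon of the gene, which is coding and 985 bp long (chr4:55529999-55530983, gene on the − strand), and 0 lay in its other 4 exons. Oct4 at day 1 had 2 of them, with scores of 33.7 (percentile 92.9) and 12.2 (percentile 56.1). Oct4defSox2 at day 1 also had 2, at scores of 5.6 and 4.0 (percentiles 7.17 and 0.0483), close to the lowest of that library. Sox2 in Oct4defSox2-SK at day 5 had 1 with a score of 9.5 (percentile 54.8). Oct6 M151S had 1 with a score of 13.3, the 46th strongest of 22804 (percentile 99.8), although its fold enrichment over the local background was only 2.55. The exon summit was thus near the top of 2 libraries and near the bottom of another. Oct4 at days 5 and 7, Oct4defSox2 at day 5 and the other 5 Sox2 libraries had 0, and so did Oct4 S151M, whose list was the longest.

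Reads of the delivered Klf4 cDNA and of the endogenous exons cannot be told apart in summit lists. Of 21938 coding genes, 320 (1.46%) had exon summits in at least as many libraries as Klf4. The other delivered factors had exon summits in more libraries: Sox2 in 9 libraries with 13 summits, Pou5f1 (the gene of Oct4) in 8 with 10, and Pou3f1 in 8 with 15. These included cocktails without the factor, as Sox2 in Oct6-SK had a Pou5f1 exon summit at both days. Pou3f1 exon summits were likewise found without Oct6, for Sox2 in Oct4-SK and Oct4defSox2-SK at both days and for Oct4defSox2 at day 1. Oct4 S151M, Oct4 at days 5 and 7 and Oct4defSox2 at day 5 had 0 exon summits in these 4 genes. The coding genes with exon summits in the most libraries were Csrp3, Rhob and Zfp626 (10 each), Sox2 and Rbbp4 (9 each), so 4 of these 5 were not delivered.

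**Figure D1:**
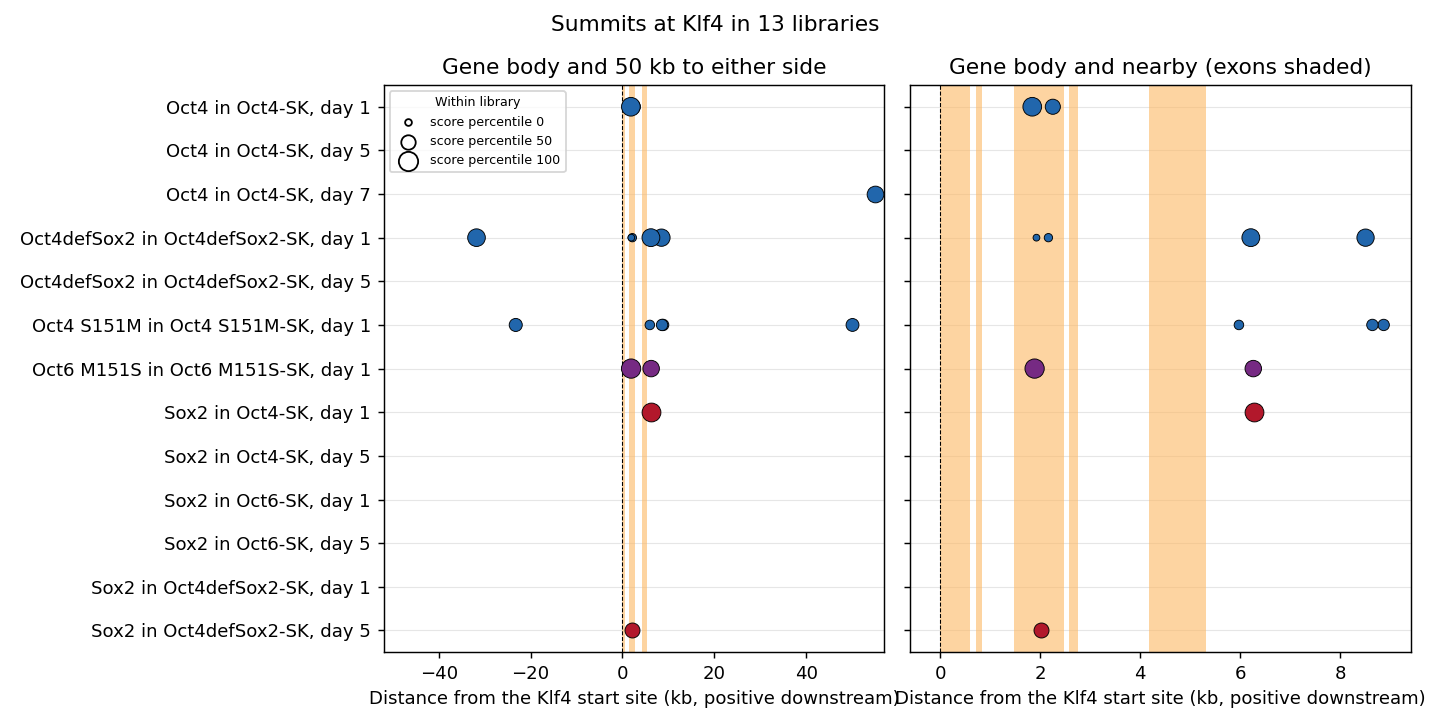
Summits at Klf4 by library (rows) and distance from the Klf4 start (kb), with exons shaded and dot area growing with the score percentile within the library; blue is the Oct4 antibody, purple Oct6 and red Sox2. The 6 exon summits all fall in the third exon, and the only group of other summits found with 3 antibodies lies about 6 kb from the start.

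Outside its exons Klf4 had few summits, 11 in 5 libraries (10.4 per 100 kb, the lowest density of the 8 genes, whose total was 15.9 per 100 kb). Exon summits were left out for Klf4 only, so its density is not counted like that of the other genes. Of the 11 summits, 9 lay downstream, 2 upstream and 0 in an intron or within 1 kb of a start. The downstream site printed above had a summit of Sox2 in Oct4-SK at day 1 with a score of 18.8 (percentile 94.5). Oct4defSox2 at day 1 scored 23.9 there (percentile 83.4) and Oct6 M151S 4.4 (percentile 69.3). Oct4 in Oct4-SK had no summit there at any day. Its only summit near Klf4 outside the exons was at day 7, 54925 bp from the start and close to the edge of the window, with a score of 14.1 (percentile 71.6). Oct4 S151M had 5 summits near Klf4, with percentiles between 13.9 and 38.4, so none was among its stronger ones. An Oct4defSox2 day 1 summit 31772 bp upstream, in the transcript Gm12511, held the octamer and scored 22.3 (percentile 81.4).

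**Figure D2:**
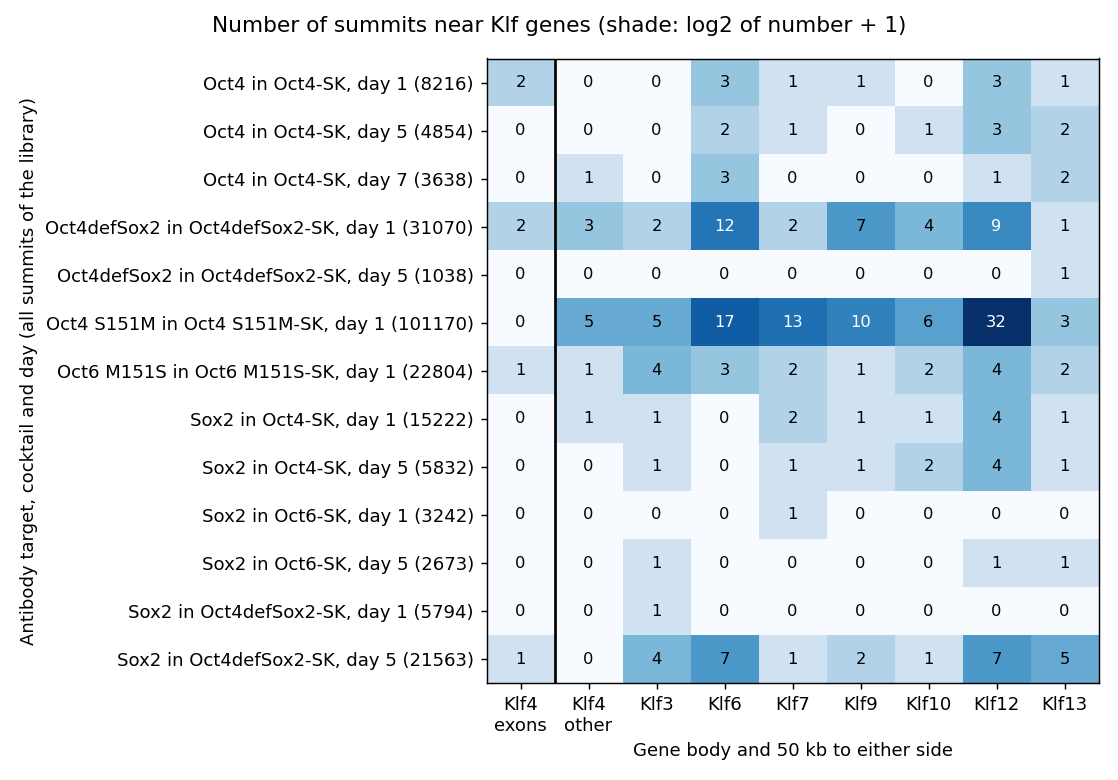
Number of summits in each library (rows, with the total of the library in brackets) near each gene (columns), with Klf4 exon summits in a column of their own. Klf12 and Klf6 take the most summits, Oct4 S151M the most of any library, and Oct4defSox2 at day 5 has only the Klf13 summit.

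Each of the 8 genes had summits, in 5 to 11 of 13 libraries, in 64 of 104 possible combinations of gene and library, or in 18 when each library was held to its 1038 strongest summits. In the Oct4-SK cells, Oct4 had summits near 5 of 8 genes at day 1 (9 summits), when 29.8% of coding genes had one by the same rule. At day 5 it was again 5 of 8 (9 summits; 25.4% of coding genes) and at day 7 it was 4 of 8 (7 summits; 19.0%). Klf6, Klf12 and Klf13 had an Oct4 summit at all 3 days, Klf7 at days 1 and 5, Klf9 at day 1, Klf10 at day 5 and Klf4 at day 7. Klf3 had none. Oct4defSox2 had summits near all 8 genes at day 1 (40 summits; 63.0% of coding genes) but near Klf13 only at day 5 (1 summit; 6.62%). Oct4 S151M also reached all 8 (91 summits), as it did 90.0% of coding genes, and so did Oct6 M151S (19 summits; 69.0%).

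Sox2 in Oct4-SK had summits near 7 of 8 genes at day 1 (11 summits; 46.1% of coding genes), all but Klf6, and near 6 at day 5 (10 summits; 30.0%). Sox2 in Oct6-SK had 1 summit at day 1, near Klf7 (10.5% of coding genes), and 3 at day 5, near Klf3, Klf12 and Klf13 (14.3%). Sox2 in Oct4defSox2-SK had 1 summit at day 1, near Klf3 (18.6%), and 27 at day 5, near all genes but Klf4 (66.1%). The 3 longest lists were those that reached all 8 genes, and with a score of at least 10 Oct6 M151S reached 0. The median window of the 8 genes was 128.2 kb against 117.4 kb over coding genes, but that of Klf12 was 514 kb.

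Per megabase, Oct4 at day 1 had 6.25 summits over the windows of the 8 genes and 3.37 over those of all coding genes. Oct4 at days 5 and 7 had 6.25 and 4.86 against 2.19 and 1.66, and Oct4defSox2 at day 1 had 27.8 against 12.7. The order was opposite for Sox2 in Oct4defSox2-SK at day 1 (0.695 against 2.27) and Sox2 in Oct6-SK at day 1 (0.695 against 1.14), each with a single summit near the 8 genes. Shares of the library were also taken, with Klf4 exon summits counted. They lay between 0.0173% (0.00305 to 0.0977) for Sox2 in Oct4defSox2-SK at day 1 and 0.192% (0.0932 to 0.397) for Oct4 at day 7. The intervals of this pair overlap. That of Oct4defSox2 at day 1 (0.135%, 0.1 to 0.183, with 2 exon summits) lay just above the lowest one.

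By position, 95 of the 229 summits lay in introns, 67 upstream, 56 downstream and 11 in exons, and 35 lay within 1 kb of an annotated start. Of the 68 summits of Klf12, 57 were intronic, and its gene body took up 414 kb of its 514 kb window. Of the 20 summits of Klf13, 16 lay upstream, and these count the site shared by 10 libraries once per library. Klf6 had 47 summits in a window of 108.9 kb (43.2 per 100 kb), the densest of the 8, with 20 of them downstream. Klf3 had 19 summits (14.7 per 100 kb), Klf7 24 (12.4), Klf9 23 (18.1), Klf10 17 (15.6), Klf12 68 (13.2) and Klf13 20 (13.1). Without the Oct4 S151M library 138 summits were left.

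**Figure D3:**
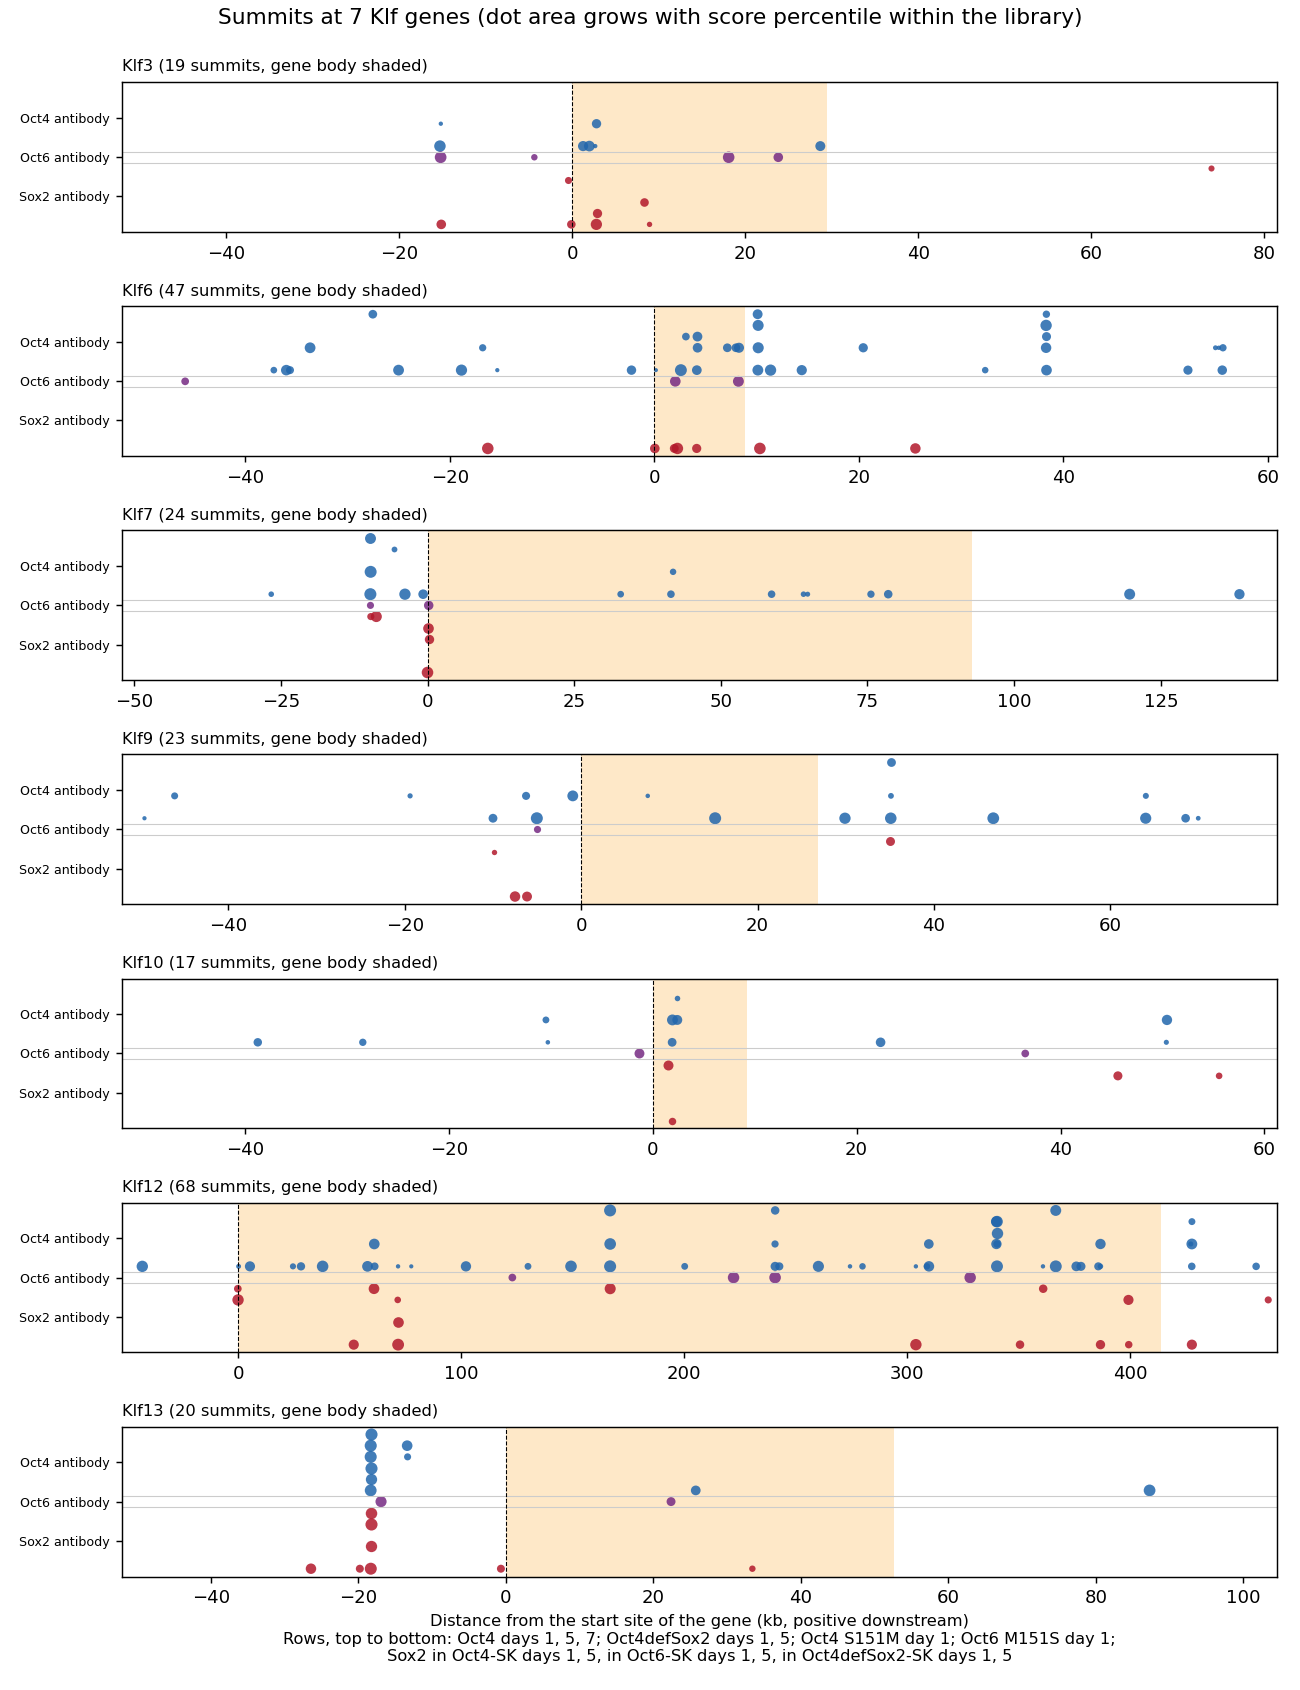
Summits at the 7 genes other than Klf4 by distance from the gene's start (kb), libraries in rows from Oct4 day 1 at the top to Sox2 in Oct4defSox2-SK day 5 at the bottom, gene body shaded. The column of dots upstream of Klf13 holds 10 libraries, and the Klf12 dots spread over its long gene body.

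At the Klf13 upstream site every Oct4 antibody library had a summit. Oct4 scored 103.0 at day 1 (percentile 99.6, rank 35), 115.9 at day 5 (percentile 99.5, rank 26) and 80.5 at day 7 (percentile 99.1, rank 32). Oct4defSox2 scored 200.3 at day 1 (percentile 99.8, rank 70) and 22.7 at day 5 (percentile 85.7, rank 148). Oct4 S151M scored 174.6 (percentile 94.9, rank 5139), a lower place in its list than for Oct4 or for Oct4defSox2 at day 1. Among Sox2 libraries, Oct4-SK scored 15.2 at day 1 (percentile 89.3) and 55.2 at day 5 (percentile 99.7, rank 17). Oct6-SK at day 5 scored 14.6 (percentile 86.1) and Oct4defSox2-SK at day 5 scored 48.3 (percentile 98.1). The site was therefore among the strongest 1% of Oct4 summits at each day and of Sox2 summits at day 5 in Oct4-SK.

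The 3 libraries without a summit at this Klf13 site were Sox2 in Oct6-SK at day 1, Sox2 in Oct4defSox2-SK at day 1 and Oct6 M151S, which instead had a summit 16941 bp upstream (score 5.3, percentile 82.5). Summits of the 4 Sox2 libraries lay between positions 63957202 and 63957246, before the first base of the SoxOct match. The summits of 5 of the 6 Oct4 antibody libraries lay between 63957254 and 63957269, from the first base of the octamer onwards, and that of Oct4defSox2 at day 5 lay at 63957225. Only 120 of 172804 sites of the series (0.0694%) had summits in 10 or more libraries, and this was 1 of the 162 here (0.617%). For 5 or more libraries the shares were 1.85% (3 sites) here and 2.13% in the series, and for 2 or more 19.8% (32 sites) and 15.8%. Klf13 also had a weaker Oct4 site 13.3 to 13.4 kb upstream at days 5 and 7 (scores 14.3 and 6.9).

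**Figure D4:**
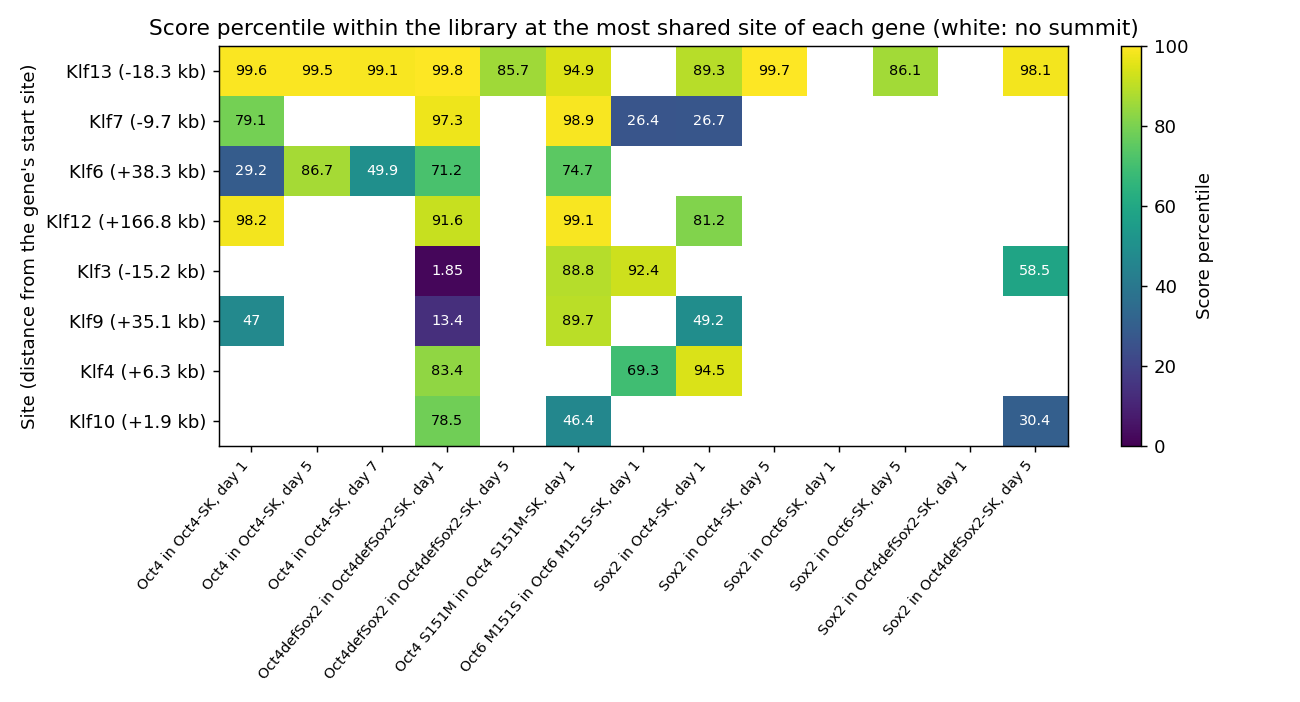
Score percentile within each library (columns) at the most shared site of each gene (rows, with the distance from its start), white where the library has no summit. The Klf13 row is filled in 10 libraries at percentiles from 85.7 to 99.8, and most other rows are filled at day 1 only.

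Klf7, a widely expressed factor with a role in neurons, had a site 9727 bp upstream in 5 libraries, all at day 1 by title. Oct4 scored 19.4 there (percentile 79.1), Oct4defSox2 63.4 (percentile 97.3) and Oct4 S151M 435.3 (percentile 98.9). Sox2 in Oct4-SK scored 6.1 (percentile 26.7) and Oct6 M151S 3.2 (percentile 26.4), so the site was strong for the Oct4 proteins and weak in both other libraries. No library of day 5 or 7 had it. At the Klf7 start, within 202 bp of it, lay summits of Sox2 in Oct6-SK at day 1 (score 7.32, its only one near the 8 genes), in Oct4-SK at day 5 (12.7) and in Oct4defSox2-SK at day 5 (23.8), and of Oct6 M151S (3.9).

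Klf12, which represses genes by recruiting the corepressor CtBP, had 47 sites, of which 11 were found in 2 or more libraries. At the MORE site printed above, Oct4 at day 1 scored 63.1 (percentile 98.2), Oct4defSox2 at day 1 35.4 (percentile 91.6), Oct4 S151M 494.7 (percentile 99.1) and Sox2 in Oct4-SK at day 1 11.6 (percentile 81.2). It had no summit at days 5 or 7. The second intron site, with MORE+1, had the other order in time. Oct4 scored 25.5 at day 5 (percentile 90.1) and 22.4 at day 7 (percentile 87.4) but had no summit at day 1, while Oct4defSox2 at day 1 scored 8.6 (percentile 29.9) and Oct4 S151M 226.0 (percentile 96.4). An intron site 71.6 kb into the gene was found for Sox2 in Oct6-SK (score 11.7) and in Oct4defSox2-SK (32.9) at day 5, and weakly for Oct4 S151M (5.8). In Oct4-SK at day 5 the nearest Sox2 summit lay more than 100 bp away (6.2). At the Klf12 start only Sox2 in Oct4-SK had upstream promoter summits, with a score of 17.0 at day 5 (percentile 86.5) and of 6.2 at day 1 (percentile 32.8).

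Klf3, the other CtBP-recruiting repressor, had no Oct4 summit in Oct4-SK at any day. Its most shared site, 15201 bp upstream in the transcript Gm20033, was found in 4 libraries: Oct4 S151M (score 91.0, percentile 88.8), Oct6 M151S (6.4, percentile 92.4), Oct4defSox2 at day 1 (4.4, percentile 1.85) and Sox2 in Oct4defSox2-SK at day 5 (10.1, percentile 58.5). It held a KLF string and, within 100 bp of its centre, MORE with 1 mismatch. In an intron, 2797 to 2828 bp from the start, Oct4defSox2 at day 1 (score 12) and Sox2 in Oct4defSox2-SK at day 1 (9.5) and day 5 (19.1) met within 100 bp. This was the only site near the 8 genes shared by Oct4defSox2 and Sox2 at day 1 in that cocktail.

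Klf6 and Klf10 are early response genes, induced by injury and by TGF-β respectively. Klf6 had a site 38349 bp from its start, past its end and in the transcript Gm47507, with Oct4 summits at all 3 days. Their scores were 8.3 at day 1 (percentile 29.2), 21.6 at day 5 (percentile 86.7) and 9.4 at day 7 (percentile 49.9), beside 17.1 for Oct4defSox2 at day 1 and 41.9 for Oct4 S151M. No Sox2 library had it. A Klf6 site about 10.1 kb from the start had Oct4 at day 1 (13.5) and day 5 (17.7), Oct4defSox2 at day 1 (22.6) and Oct4 S151M (48.1), and a Sox2 summit of Oct4defSox2-SK at day 5 lay 10.3 kb from the start (23.9, percentile 90.7). All 7 Sox2 summits near Klf6 came from that library, and Sox2 in the other 5 libraries had 0. The Klf6 SoxOct site printed above, 4197 bp into the gene, was found for Oct4 at day 7 (11.5), Oct4defSox2 at day 1 (12.9), Oct4 S151M (25.4) and that same Sox2 library (8.8), and not for Oct4 at days 1 and 5. Klf10 had its most shared site 1909 bp from its first start and 42 bp from another start. Oct4defSox2 at day 1 scored 20.3 there, Oct4 S151M 18.4 and Sox2 in Oct4defSox2-SK at day 5 6.5.

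Klf9, a gene induced by glucocorticoid and thyroid hormone, had 17 sites, of which 5 carried MORE or MORE+1. Its most shared site, 35108 bp from the start and past the gene's end, carried MORE with 1 mismatch. It scored 10.7 for Oct4 at day 1 (percentile 47.0), 6.4 for Oct4defSox2 at day 1, 98.4 for Oct4 S151M (percentile 89.7) and 7.7 for Sox2 in Oct4-SK at day 1. Both Klf9 sites printed above were stronger for Oct4 S151M, at 312.5 (upstream, percentile 97.8) and 316.8 (intron, percentile 97.9). The upstream one had a weak Oct6 M151S summit besides (3.2, percentile 27.0), and the intron one had no other library. A further Klf9 site with MORE+1, 46728 bp from the start, also had only Oct4 S151M (158.0, percentile 94.1). Oct4 S151M alone gave 68 of the 162 sites (42.0%), against 47.5% of all sites of the series.

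Over time, the 3 Oct4 libraries gave 18 sites near the 8 genes. Day 1 only held 6 (33.3%, against 44.9% of 13115 sites in the series), day 5 only 4 (22.2% against 18.4%) and day 7 only 3 (16.7% against 16.1%). Days 1 and 5 shared 1 further site, at Klf6 (5.56% against 9.17%), days 1 and 7 shared 0 (against 2.02%), and days 5 and 7 shared 2, the second Klf12 intron site and the weaker Klf13 site (11.1% against 3.17%). All 3 days shared 2 (11.1% against 6.24%), at Klf13 and at Klf6. In pairs, 3 of the 9 day 1 summits were found at day 5 (33.3%, 12.1 to 64.6) and 24.5% over the library, and 2 of 9 at day 7 (22.2% against 13.1%). From day 7, 4 of 7 were found at day 5 (57.1%, 25 to 84.2, against 33.7%), and from day 5, 4 of 9 at day 7 (44.4% against 25.2%). At day 1, 3 of the 9 day 5 summits (33.3% against 41.5%) and 2 of the 7 day 7 summits (28.6% against 29.4%) were found. With these few summits every interval holds the value of the whole library.

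Oct4 and its mutants overlapped at day 1. Of the 9 Oct4 summits, 7 (77.8%, 45.3 to 93.7) had an Oct4defSox2 summit within 100 bp, against 57.4% over the library, at all 5 genes that Oct4 reached. Of the 40 Oct4defSox2 summits, those 7 were 17.5% (15.2% over the library). Held to equal numbers of strongest summits, or at 50 bp, 4 of the 9 were shared (44.4%). The 57.4% does not apply to these settings, for which no library value is given. At day 5 the Klf13 site was the only shared one, 1 of 9 Oct4 summits (11.1%, against 10.6%) and the only Oct4defSox2 summit. From day 1 to day 5, 1 of 40 Oct4defSox2 summits was found again (2.5%, 0.443 to 12.9, against 2.35%), also at Klf13. Oct4 S151M covered 8 of the 9 Oct4 summits at day 1 (88.9% against 78.2%), and the 8 were 8.79% of its 91 (against 6.34%). With equal numbers it covered 4 of 9, again without a library value at that setting. It covered 16 of the 40 Oct4defSox2 summits (40% against 43.5%). Oct6 M151S shared 2 of the 9 Oct4 summits (22.2%, 6.32 to 54.7, against 8.39%), at Klf7 and Klf12, and the pair was 10.5% of its own 19 (against 3.04%). Of those 19, 4 were found in Oct4 S151M (21.1%, 8.51 to 43.3, against 7.1%), at Klf3, Klf7, Klf9 and Klf12. Set against the library value of the same setting, the interval held it with Oct6 M151S scores of at least 4 (18.2%, 5.14 to 47.7, against 10.8%), at 250 bp (21.1% against 13.1%) and with flanks of 100 kb (14.3%, 5.7 to 31.5, against 7.1%). It lay above it at 50 bp and with equal numbers (both 15.8%, 5.52 to 37.6, against 3.82% and 2.27%) and with flanks of 20 kb (23.5%, 9.56 to 47.3, against 7.1%). With a minimum score of 10 Oct6 M151S shared 0 Oct4 summits, as all its 19 summits near the 8 genes outside the Klf4 exons scored under 10.

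Oct4 and Sox2 met near Klf7, Klf9, Klf12 and Klf13 in Oct4-SK at day 1. These were 4 of 9 Oct4 summits (44.4%, 18.9 to 73.3, against 19.8% over the library) and 4 of 11 Sox2 summits (36.4%, 15.2 to 64.6, against 10.7%). At 50 bp only 1 was left, 11.1% of the Oct4 summits, and no library value is given for that distance. At day 5 they met at the Klf13 site alone, 1 of 9 Oct4 summits (11.1% against 9.77%) and 1 of 10 Sox2 summits (10.0% against 8.11%). In Oct4defSox2-SK the day 1 overlap was the Klf3 site, 1 of 40 (2.5% against 8.73%), and the day 5 overlap the Klf13 site, 1 of 27 Sox2 summits (3.7% against 0.348%).

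Sox2 summits near these genes were compared between days and cocktails, and every interval of the 8 ordered pairs holds the value of the whole library. In Oct4-SK 1 of 11 day 1 summits was found at day 5 (9.09%, 1.62 to 37.7, against 7.23%), the Klf13 site, which was 1 of 10 from day 5 (10.0% against 18.9%). Outside these pairs, and without a library value, the single day 1 summit in Oct4defSox2-SK, at Klf3, had a day 5 summit within 100 bp. That in Oct6-SK, at Klf7, had no day 5 summit of its cocktail near that gene. None of the 11 Oct4-SK summits of day 1 was found in Oct4defSox2-SK or Oct6-SK at day 1, with intervals up to 25.9% and library values of 10.6% and 5.28%. At day 5, 2 of 10 Oct4-SK summits were found in Oct4defSox2-SK (20%, 5.67 to 51.0, against 38.3%), at Klf7 and Klf13, and these were 7.41% of the 27 there (against 10.4%). In Oct6-SK, 1 of the 10 was found (10.0% against 16.6%), at Klf13. Of the 3 Oct6-SK summits at day 5, 2 were found in Oct4defSox2-SK, at Klf12 and Klf13 (66.7% against 52.4%). Sox2 in Oct4defSox2-SK at day 5 had 8 of its 27 summits within 1 kb of a start, at Klf3, Klf6, Klf7, Klf10 and Klf13, against 11.7% of that library. Oct4 had 0 of 9 there at day 1, 3 of 9 at day 5 and 2 of 7 at day 7 (against 4.15%, 9.66% and 5.84% of the libraries).

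Motifs were searched as strings on both strands in 201 bp around each site, and a match describes the sequence only. SoxOct (up to 2 mismatches) was found at 9 of 162 sites (5.56%, 2.95 to 10.2), against 4.46% of all sites of the series and 1.11% of windows 2 kb away. MORE or MORE+1 (up to 1 mismatch) was found at 21 sites (13%, 8.64 to 19.0; 14.5% of all sites, 0.782% away), of which 7 were at Klf12, 5 at Klf9, 4 at Klf6 and 3 at Klf7. Both shares depend on the mismatches allowed. With 1 fewer, SoxOct was at 1.23% of the sites near the 8 genes and 0.623% of all, and MORE or MORE+1 at 1.23% and 2.11%. With 1 more they were at 23.5% against 21.1% and 33.3% against 37.1%. The octamer ATGCAAAT, which can lie inside SoxOct, was found at 4 (2.47% against 5.14%). A Sox string (CCATTGTT or CCTTTGTT) was found at 5 (3.09% against 4.08%). The AP-1 string TGACTCA was found at 14 (8.64% against 8.13%), 5 of them at Klf6. The intervals of these strings hold the values of the series.

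The KLF string GGGNGNGGC was found at 17 of 162 sites (10.5%, 6.66 to 16.2), above the 3.76% of all sites and the 2.7% of windows 2 kb away. It lay at 5 sites of Klf10, 4 of Klf3, 3 each of Klf6 and Klf12 and 2 of Klf13, and at 0 of Klf4, Klf7 and Klf9. By library it was found at 6 of the 27 Sox2 summits of Oct4defSox2-SK at day 5 (22.2%, 10.6 to 40.8, against 8.17%) and 5 of 10 of Oct4-SK at day 5 (50.0%, 23.7 to 76.3, against 9.37%). It was also at 3 of the 11 Sox2 summits of Oct4-SK at day 1 (27.3%, 9.75 to 56.6, against 3.24%) and 2 of 3 of Oct6-SK at day 5 (66.7%, 20.8 to 93.9, against 7.08%), and at 0 of the single Sox2 summits of Oct6-SK and Oct4defSox2-SK at day 1. The Oct4 libraries had it at 1 summit each, of 9, 9 and 7 (11.1%, 11.1% and 14.3%, against 3.59%, 6.11% and 4.87%). Oct4defSox2 had it at 3 of 40 (7.5% against 4.48%) and, at day 5, at its only summit (against 6.87%). Oct6 M151S had it at 2 of 19 (10.5% against 4.98%) and Oct4 S151M at 4 of 91 (4.4% against 2.45%). Every library with a match, Sox2 libraries included, counts the shared Klf13 site, except Oct6 M151S. These shares thus recount 1 site and are not independent of each other. Within 1 kb of an annotated start it lay at 8 of 25 sites near the 8 genes (32%, 17.2 to 51.6, against 12.7% of such sites in the series). Further away it lay at 9 of 137 (6.57%, 3.49 to 12, against 3.14%), so the share near the 8 genes was the higher one in both classes, in the second by little more than counting error. This split was made after the data had been seen.

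For Oct4 S151M, MORE or MORE+1 lay at 20 of the 91 summits (22.0%, 14.7 to 31.5, against 24.5% of the library). Within that library, the 20 summits with the element had a median score of 77.1 (median percentile 86.4) and the other 71 one of 14.6 (38.4). Over the whole library the medians were 30.3 (65.6) with and 17.6 (45.1) without. For Oct4 the element was at 2 of 9 summits at day 1, 1 of 9 at day 5 and 1 of 7 at day 7 (22.2%, 11.1% and 14.3%, against 10.5%, 12.9% and 7.64% of the libraries). SoxOct was at 2, 2 and 3 (22.2%, 22.2% and 42.9%, against 15.1%, 19.6% and 31.9% of the libraries).

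**Figure D5:**
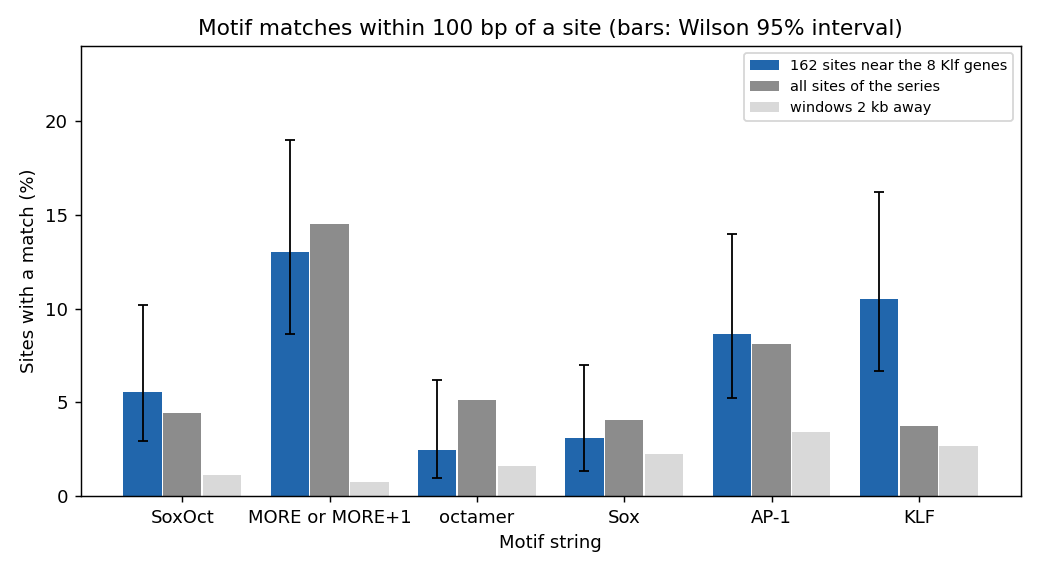
Share of sites with a motif match (%) among the 162 sites near the 8 genes (blue, with Wilson 95% intervals), all sites of the series and windows 2 kb away. Among the strings shown only the interval of the KLF string, from 6.66 to 16.2%, lies above the value of all sites, 3.76%.

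The other 18 genes of the Klf and Sp families were counted by the same rule. Shares of coding genes by that rule are in brackets. Oct4 had summits near 7 of the 18 at day 1 (29.8%), and near 2 at day 5 (25.4%) and at day 7 (19.0%). Oct4defSox2 reached 14 at day 1 (63.0%) and 0 at day 5 (6.62%), Oct4 S151M 16 (90.0%) and Oct6 M151S 14 (69.0%). Sox2 at days 1 and 5 reached 8 and 7 of them with Oct4 (46.1% and 30.0%). It reached 2 and 1 with Oct6 (10.5% and 14.3%), and 3 and 15 with Oct4defSox2 (18.6% and 66.1%). Sp9 was reached in the most libraries (9), then Klf2 (8), a gene of naive pluripotent cells, and Sp3, Sp6 and Sp8 (7 each). At days 1, 5 and 7 Oct4 reached 5, 5 and 4 of the 8 genes, and 7, 2 and 2 of these 18. The lists differ in length, and the shares of coding genes were 29.8%, 25.4% and 19.0%. The difference between the lists was not tested.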

How the data were processed

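OG2 MEFs transduced with Sox2, Klf4 and a POU factor were profiled by ChIP-seq, and 13 libraries were used, 1 per group. The 3 input libraries were not analysed here. Paired-end reads (125 bp for Oct4 at day 7, 150 bp otherwise) were aligned by the authors to mm10 with Bowtie2 (2.2.5 in the submitters' notes), and peaks were called per library with MACS2, at p = 0.0001 by the stated methods. The Oct6 M151S list goes down to a score of 2.3, with 56.7% of its summits under 4, so that list was not limited to this threshold. The deposited score of a summit is its −log10 p-value, not adjusted. Deposited peak lists of Oct4 S151M and Oct6 M151S further gave a fold enrichment, a ratio to the local background, and a −log10 q-value.

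The 8 genes, the motif strings and the list of other Klf and Sp genes were chosen with earlier results of these data known. Sites named were, for each gene, the one outside Klf4 exons found in most libraries (ties by mean score percentile), and every site in 5 or more libraries. Others were named after their values had been seen. Also by rule, the 5 coding genes with exon summits in the most libraries were named. Summits within 100 bp counted as shared, and 34 ordered pairs of libraries were compared. Score percentiles were taken within a library. Alternatives were a minimum score of 10, equal numbers of strongest summits, 50 or 250 bp, flanks of 20 or 100 kb, Oct6 M151S scores of at least 4, exons with 100 bp added, Klf4 exon summits kept, 50 bp motif windows and 1 mismatch fewer or more. Leaving out Oct4 S151M was added after the data were seen. Sequences came from the mm10 genome. The procedure was tested on simulated data, where 1400 of 1400 planted motif matches were found. Python 3.11.15, numpy 2.4.6, pandas 2.3.3, scipy 1.17.1, pysam 0.24.0 and matplotlib 3.10.9 were used.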

Additional observations from a re-analysis of the deposited data

How the results depend on the processing

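Of 251 alternative values of the counts over all libraries and of the shares, 222 stayed within the spread allowed for a count or a share and 29 moved. Flanks of 100 kb, a sharing distance of 250 bp, Oct6 M151S scores of at least 4, exons with 100 bp added and keeping Klf4 exon summits moved none of these beyond that spread, which is wide where few summits are counted. Of the 222, 35 still differed by over 1.5 times, 15 of them with a score of at least 10 and 6 each with flanks of 100 kb and with equal numbers of strongest summits. At 250 bp they were 5 Sox2 shares: Oct4-SK day 1 in day 5 18.2%, the reverse 20%, Oct4-SK day 5 in Oct4defSox2-SK 40%, the reverse 14.8%, and Oct4-SK day 5 in Oct6-SK 20%. Oct4 day 1 in Oct6 M151S was 11.1% with scores of at least 4. Flanks of 100 kb did raise the genes reached per library, to 2 for Oct4defSox2 at day 5, Sox2 in Oct6-SK at day 1 and Sox2 in Oct4defSox2-SK at day 1, and to 5 for Sox2 in Oct6-SK at day 5. With a score of at least 10, Klf4 exon summits were in 2 libraries, the genes reached were 3 (Oct4, day 5), 4 and 3 (Sox2 in Oct4-SK, days 1 and 5) and 0 (Oct6 M151S and day 1 Sox2 in Oct6-SK and Oct4defSox2-SK), summits near the 8 genes fell to 141 and the gene and library combinations of the other Klf and Sp genes to 48. Oct4 day 1 summits found in Oct6 M151S fell to 0.0%, Oct4defSox2 day 1 summits found in Sox2 to 0.0%, and Sox2 in Oct6-SK day 5 summits found in Oct4defSox2-SK rose to 100% (2 of 2). With equal numbers of strongest summits, Klf4 exon summits were again in 2 libraries and the combinations of the 8 genes and libraries with a summit numbered 18. The shares then were 44.4% (Oct4 day 1 in Oct4defSox2), 33.3% (the reverse), 50.0% (Oct4defSox2 day 1 in day 5), 44.4% (Oct4 in Oct4 S151M), 40% (the reverse), 22.5% (Oct4defSox2 in Oct4 S151M), 30.0% (the reverse), 25% (Sox2 at day 5, Oct4defSox2-SK in Oct4-SK), 0.0% (Oct4defSox2 in Sox2 at day 1, and the reverse) and 100% (Sox2 in Oct4defSox2 at day 5). This setting uses fewer summits by construction. A distance of 50 bp gave 44.4% (Oct4 day 1 in Oct4defSox2), 11.1% (Oct4 day 1 in Sox2) and 9.09% (the reverse), and flanks of 20 kb gave 100% (Oct4 day 1 in Oct4 S151M). Windows of 50 bp took AP-1 to 3.7%. With 1 mismatch fewer, SoxOct and MORE or MORE+1 were both at 1.23% of sites, and with 1 more at 23.5% and 33.3%. Without Oct4 S151M 138 summits were left. Other causes of these shifts were not tested. No paired analysis was possible because each group had 1 library.

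Read depths were not used here, so an absent summit is not an absent factor, and list length cannot be told apart from antibody, cocktail or day. Oct4 at day 7 had shorter reads. Oct6 M151S had another antibody, a looser threshold and a day label at odds with its title and the paper. Which Sox2 antibody each Sox2 library had is not stated, so it cannot be told apart from cocktail or day. Summits within 50 kb of a gene need not act on it.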
